A study of Mus musculus with 18 samples.

Results

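The variable (V) and constant (C) segments of the T cell receptor genes were followed in RNA of 18 mouse spleen samples. Members were all genes of the deposited count table with a T cell receptor V or C gene type and at least 10 counts in at least 6 of the 18 libraries. They were sorted into alpha, beta, gamma and delta chains by the start of the gene symbol. The table held 152 such genes among 55385 in all, and 81 passed. The alpha chain gave 46 of 110 V segments and Trac. The beta chain gave 21 of 22 V segments with Trbc1 and Trbc2. The gamma chain gave Trgv1, Trgv2 and Trgv4 of 7 V segments, with Trgc1, Trgc2 and Trgc4. The delta chain gave Trdv1, Trdv2-2, Trdv4 and Trdv5 of 5 V segments, with Trdc. At the edge of the rule, Trav6-2 and Trdv1 entered with 6 libraries at 10 counts or more, while Trav6-1 and Trav4-2 stayed out with 5. Segments named for both the alpha and the delta locus, such as Trav21-dv12, were counted as alpha.

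The 3 genotypes had 6 samples each, 3 male and 3 female. WT mice were wild-type C57BL/6J. Dp16 mice, a model of Down syndrome, have a duplication on mouse chromosome 16 of a stretch with counterparts on human chromosome 21. Dp16_2xIFNRs mice carry the same duplication with the dosage of its interferon receptor genes returned to normal. The age label, tagged as days post conception, held values from 17.1 to 18.0 although the mice are called adult in the series title, and its unit was not interpreted. Whole spleen was used without sorting, so a lower level of a T cell gene can come from fewer T cells or from less RNA per T cell, which bulk RNA cannot tell apart. No member lies on chromosome 16: the beta genes lie on chromosome 6, the gamma genes on chromosome 13, and the alpha and delta genes on chromosome 14.

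A T cell receptor is a pair of chains, alpha with beta on most T cells and gamma with delta on a smaller set. Each developing T cell joins V, (D) and J segments of a locus by DNA rearrangement, and splicing then links the joined V exon to a C gene. The V segment sets part of the antigen contact and the C gene anchors the chain in the membrane, where it assembles with the CD3 proteins. The delta genes sit inside the alpha locus and are lost from a chromosome when alpha rearranges. Counts on V segments are therefore read here as segment use in spleen RNA, which is not a count of T cells with each segment. Counts on C genes report the RNA level of each C gene, which is not the amount of chain protein made.

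Germline sequence decides which of these genes a read can be assigned to, so the stretches that matter are shown first, 5′ to 3′, from GENCODE vM21 transcripts on GRCm38. The first exons of Trbc1 and Trbc2 differ at 1 of 375 bases, and the last 120 bases of that exon are printed with the differing base in capitals (Trbc1 at chr6:41538473-41538592, Trbc2 at chr6:41546985-41547104, both on the plus strand).
Trbc1: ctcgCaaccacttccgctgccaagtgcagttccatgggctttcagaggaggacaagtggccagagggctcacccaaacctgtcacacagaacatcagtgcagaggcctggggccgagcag
Trbc2: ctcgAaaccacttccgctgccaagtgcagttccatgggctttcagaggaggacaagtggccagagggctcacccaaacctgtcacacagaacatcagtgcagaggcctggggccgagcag
Over their whole transcripts 71.3% of the 100-base windows of Trbc1 and 69.1% of those of Trbc2 occurred in no other receptor gene, and their identity was 84.2%.

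The 4 beta V segments with the highest mean shares over all 18 libraries are shown by their last 60 coding bases (all plus strand: Trbv13-1 at chr6:41116409-41116468, Trbv13-2 at chr6:41121773-41121832, Trbv13-3 at chr6:41130526-41130585, Trbv15 at chr6:41141599-41141658). Capitals run from the codon of the last cysteine, where the antigen-binding CDR3 loop begins, to the end of the segment.
Trbv13-1: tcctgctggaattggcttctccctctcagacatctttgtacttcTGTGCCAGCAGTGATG
Trbv13-2: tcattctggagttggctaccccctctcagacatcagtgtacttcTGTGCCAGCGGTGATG
Trbv13-3: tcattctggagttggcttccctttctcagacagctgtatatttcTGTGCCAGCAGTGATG
Trbv15: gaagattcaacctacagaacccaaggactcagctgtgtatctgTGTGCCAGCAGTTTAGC
The Trbv13 segments were up to 90.6% identical to each other and Trbv15 was at most 71.6% identical to any other segment, yet all windows of all 21 beta V members were unique.

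The alpha locus holds long duplicated blocks, and its segments can be near or exact copies. The last 120 coding bases of Trav16 (chr14:53743586-53743705) and Trav16n (chr14:53351502-53351621), both plus strand, differ at the 3 bases in capitals.
Trav16: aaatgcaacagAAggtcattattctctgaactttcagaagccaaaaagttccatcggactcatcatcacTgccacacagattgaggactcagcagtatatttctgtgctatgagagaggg
Trav16n: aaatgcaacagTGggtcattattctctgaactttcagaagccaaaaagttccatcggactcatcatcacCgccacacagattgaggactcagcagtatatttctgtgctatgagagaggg
Trav11 and Trav11d, the segments of the semi-invariant alpha chain of natural killer T cells, are exact copies over the stretch shown (chr14:53519799-53519858 and chr14:52824853-52824912, both plus strand).
Trav11: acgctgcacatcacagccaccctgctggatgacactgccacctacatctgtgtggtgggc
Trav11d: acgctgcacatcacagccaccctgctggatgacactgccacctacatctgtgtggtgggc
Trav11 had 2 counts and Trav11d 10 counts summed over the 18 libraries, and neither was a member. Trav1, the segment of the alpha chain of mucosal-associated invariant T cells, is unique and had 114 counts, with 10 or more in 3 libraries.

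Alpha V segments with almost no unique sequence had few counts. The 46 alpha V members had a median of 90.2% unique 100-base windows and 13 were fully unique. Of the 64 alpha V segments below the count minimum, 36 had no unique window and 40 had an identical partner. The 38 alpha V segments with under 1% unique windows shared 444 counts over all libraries, while the 20 fully unique ones held 4546 and 13 of these passed the rule. How reads that fit several places were counted is not given in the sources used here, and the part of sequence copies in the low counts was not tested.

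**Figure D1:**
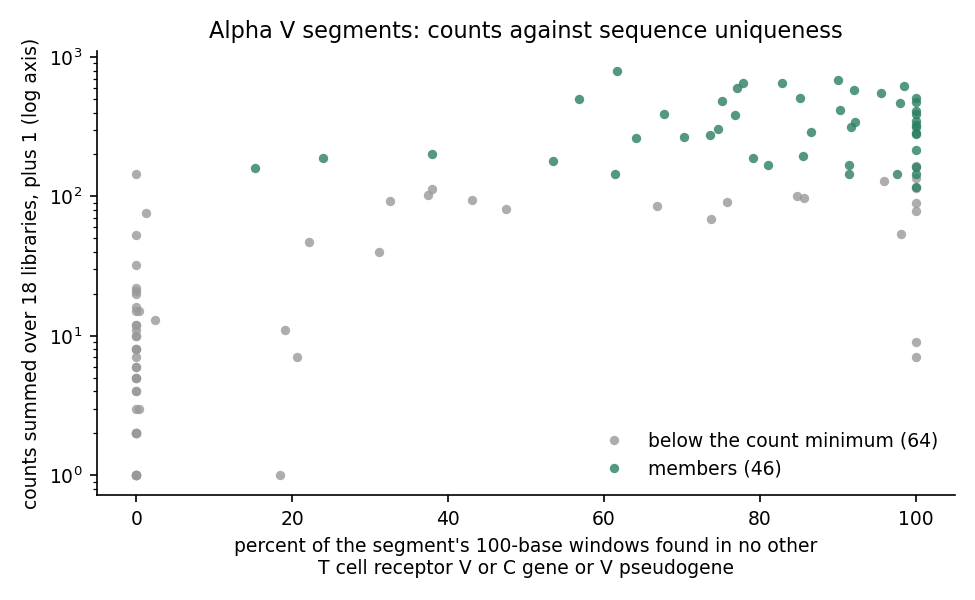
Counts of the 110 alpha V segments summed over 18 libraries (1 added, log axis) against the percent of their 100-base windows found in no other T cell receptor V or C gene or V pseudogene. Green points are the 46 members and grey points the 64 segments below the count minimum; most points at 0% unique lie at few counts.

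The libraries held 33998427 to 53021480 counts each. Members took 0.0294% to 0.0446% of them, so the V shares rest on small numbers. A library had 2333 to 3462 counts on beta V segments, 714 to 1538 on alpha V, 76 to 174 on gamma V and 30 to 87 on delta V, so 1 count was worth 0.0289% to 0.0429% of the beta chain but 1.15% to 3.33% of the delta chain. T cell genes were present in every library: the summed level of Cd3d, Cd3e, Cd3g and Cd247, the CD3 subunits that carry the receptor's signal, ran from 288.9 to 482.0 CPM (counts per mega-count of the TMM-adjusted library total). The B cell, erythroid and neutrophil marker lists differed by genotype: 9 of 9 B cell markers were called lower and 9 of 9 erythroid and 9 of 9 neutrophil markers called higher in Dp16 and in Dp16_2xIFNRs against WT. Of 15 T cell markers 0 were called higher and 2 lower, and of 7 red pulp macrophage markers 2 higher and 0 lower, in each of these comparisons. Of all genes tested, 16.6% were called higher and 13.2% lower in Dp16 against WT. In Dp16_2xIFNRs against WT these shares were 17.3% and 14.2%. Summed erythroid markers ran from 566.7 to 4335 CPM in WT and from 4695 to 7456 CPM in Dp16, and summed neutrophil markers from 430.9 to 1895 CPM and from 3164 to 10439 CPM. All members are read against these differences in marker RNA. The makeup of the spleen was not measured, and its part in the members' differences was not tested.

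Between Dp16 and WT the duplication is what differs by label. In the fit across 18634 genes (edgeR quasi-likelihood, Benjamini-Hochberg adjusted p below 0.05), 2 of 81 members were called, Trdc lower and Trbv15 higher. Of all genes tested, 29.8% were called, 16.6% higher and 13.2% lower. The members' median log2 difference was -0.21 with 25 of 81 positive, against a median of -0.01 over all genes. In Dp16_2xIFNRs against WT, 1 member was called, Trdc lower, beside 31.4% of all genes (17.3% higher and 14.2% lower). The members' median was -0.13 there. In Dp16_2xIFNRs against Dp16, 0 of 81 members were called by edgeR and 0 had an unadjusted p under 0.05, beside 0.0215% of all genes. DESeq2, limma voom and limma-trend called 0 there too. Between males and females, 0 of 81 members were called by edgeR and 5 had an unadjusted p under 0.05, beside 0.258% of all genes called. Both WT comparisons share the WT libraries.

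**Figure D2:**
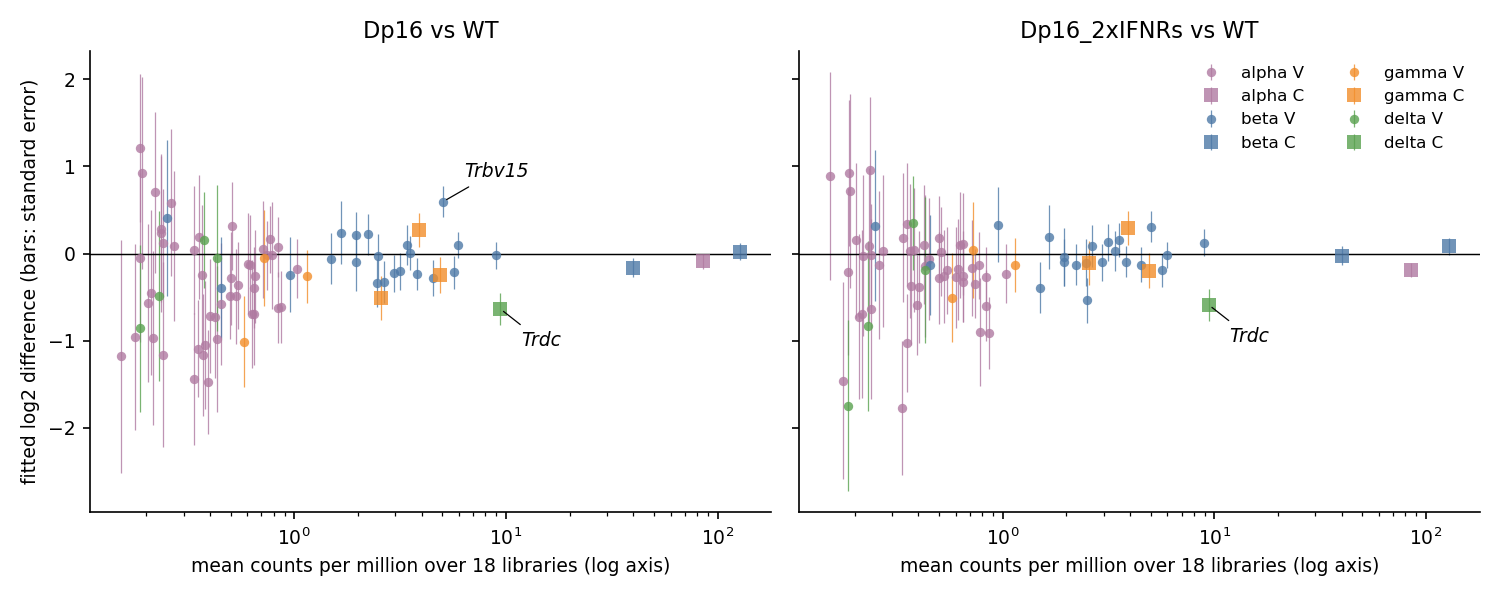
Fitted log2 difference of the 81 members from WT against their mean level in CPM (log axis), for Dp16 on the left and Dp16_2xIFNRs on the right; bars are standard errors, circles V segments and squares C genes. The called members, Trdc and Trbv15 on the left and Trdc on the right, are named; alpha V segments sit at the lowest levels with the widest errors.

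Trdc, the only C gene of the delta chain, was the member with the firmest difference between genotypes. The gene lies at chr14:54142851-54148868 on the plus strand, and its first exon begins with the following 120 coding bases (chr14:54142851-54142970), all of whose 100-base windows are unique.
Trdc: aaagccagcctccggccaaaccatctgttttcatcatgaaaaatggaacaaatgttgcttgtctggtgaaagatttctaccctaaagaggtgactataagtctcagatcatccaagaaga
The lowest, median and highest Trdc levels were 9.46, 12.2 and 15.3 CPM in WT. They were 3.88, 8.18 and 10.4 CPM in Dp16 and 6.82, 8.05 and 9.30 CPM in Dp16_2xIFNRs. All 6 Dp16_2xIFNRs libraries lay below all 6 WT libraries, while Dp16 replicates 2 and 5 reached into the WT range; ranges failed to overlap for 12.6% of all genes in the first comparison and 12.8% in the second, and for 0.0859% of all genes between Dp16_2xIFNRs and Dp16, where no member's did. The level fell by 0.63 ± 0.18 (log2, SE, n = 6 per genotype) in Dp16 against WT (edgeR adjusted p = 0.0121), and by 0.59 ± 0.18 in Dp16_2xIFNRs against WT (edgeR adjusted p = 0.0178). Dp16_2xIFNRs and Dp16 differed by 0.05 ± 0.18 (log2), with a 95% interval from -0.34 to 0.43. The call against WT in Dp16 held in all 24 fits counted for that comparison. Fits without a library of the genotype not compared are not among them. The call in Dp16_2xIFNRs was lost without WT replicate 4, the library with the highest Trdc level (-0.49), and when 4 libraries rich in Gm42418, a gene that overlaps ribosomal RNA, were left out, WT replicate 4 among them (-0.44, edgeR adjusted p = 0.0898; each had over 4% of its counts there).

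Ratios of Trdc to the CD3 genes and to Trac had lower means in both Dp16 genotypes, given as a description with no test. Per 100 CPM of the CD3 genes there were 3.19 ± 0.50 CPM of Trdc in WT, 2.04 ± 0.67 in Dp16 and 2.19 ± 0.51 in Dp16_2xIFNRs (SD, n = 6), and the genotypes overlapped. Trdc was 13.5% ± 2.42 of the Trac CPM in WT, 9.26% ± 2.80 in Dp16 and 10.3% ± 1.80 in Dp16_2xIFNRs. The last exon of Trdc overlaps Trdv5, which lies on the minus strand, over 207 bases (chr14:54148662-54148868). The libraries were made strand-specific per the labels, but whether counting used strand is not given, so reads of this overlap cannot be told apart. Trdv5 itself had a log2 difference of 0.15 ± 0.55 in Dp16 and 0.35 ± 0.54 in Dp16_2xIFNRs against WT and was not called.

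Markers of cells that can carry Trdc RNA were looked at beside it. Of 9 markers of gamma delta and innate-like T cells in the table, 2 were called lower in Dp16 and 4 in Dp16_2xIFNRs against WT, and 0 were called higher, where 13.2% and 14.2% of all genes were called lower. Sox13, a transcription factor of gamma delta T cells, was called lower in both, by 0.42 ± 0.16 (edgeR adjusted p = 0.0476) in Dp16 and by 0.67 ± 0.16 (edgeR adjusted p = 0.00246) in Dp16_2xIFNRs. Blk, a kinase that B cells express at high level, was called lower in both too, and Maf and Rora were called lower in Dp16_2xIFNRs and not in Dp16, a difference that was not tested. Il23r and Il17re, of interleukin-17 producing cells, had means of 0.209 to 0.515 CPM over the genotypes and were not called. The summed list ran from 294.4 to 379.3 CPM in WT, 241.6 to 317.7 in Dp16 and 218.6 to 282.7 in Dp16_2xIFNRs, but most of it was Blk (172 CPM in WT) and Maf (143 CPM in WT), so it is no measure of gamma delta T cells alone. Of 9 natural killer markers, 5 were called lower in Dp16, and in Dp16_2xIFNRs 4 were called lower and Tyrobp higher. Their log2 differences were negative for 8 of 9 in each comparison, with medians of -0.37 in Dp16 and -0.23 in Dp16_2xIFNRs. Their sums ran from 244.0 to 281.0 CPM in WT, 223.1 to 294.3 in Dp16 and 235.4 to 322.1 in Dp16_2xIFNRs. The sums thus do not follow most of the markers and are no measure of natural killer cells alone. Eomes, a transcription factor of natural killer and memory T cells, was 23.3 ± 1.91 CPM in WT and 15.2 ± 3.16 in Dp16 and was called lower in both comparisons. No marker of either list was at 0 in all libraries. The part of these cells in the Trdc difference was not tested.

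The C genes of the main chains differed far less. Trac, the alpha C gene (chr14:54220521-54224206, plus strand), had lowest, median and highest levels of 79.9, 89.4 and 103.4 CPM in WT, 80.9, 84.3 and 92.6 in Dp16 and 64.8, 83.4 and 87.6 in Dp16_2xIFNRs. Its log2 difference from WT was -0.09 ± 0.08 in Dp16 (edgeR adjusted p = 0.483) and -0.19 ± 0.08 in Dp16_2xIFNRs (edgeR adjusted p = 0.0949), and it was not called in either. The second value passed the threshold in 2 of 24 fits, on RPKM and without Dp16_2xIFNRs replicate 2.

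Trbc2, at chr6:41546730-41548352 on the plus strand, was the most abundant member by count and overlapped in full between genotypes, with 111.0 to 140.4 CPM in WT, 110.7 to 148.0 in Dp16 and 102.2 to 159.7 in Dp16_2xIFNRs. Trbc1, at chr6:41538218-41539881 on the plus strand, had 35.6 to 49.5, 32.7 to 43.8 and 30.8 to 55.5 CPM. The log2 differences from WT were -0.16 ± 0.11 and -0.02 ± 0.11 for Trbc1 and 0.02 ± 0.10 and 0.08 ± 0.10 for Trbc2, in Dp16 and Dp16_2xIFNRs, none of them called by edgeR; limma-trend on RPKM called Trbc1 lower in Dp16 (-0.28, adjusted p = 0.0463). Trbc2 took 73.6% to 78.1% of the summed beta C level in WT, 75.4% to 79.8% in Dp16 and 74.0% to 80.6% in Dp16_2xIFNRs. Since most of the coding sequence is shared, this split depends on how reads in the shared bases were assigned. Scaled by gene length in the authors' RPKM, the mean levels over all libraries were 207 for Trac, 185 for Trbc2 and 78.1 for Trbc1, against 2.46 for Trdc, whose gene model is 3865 bases long against 413 for Trac.

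The gamma C genes were not called in any comparison. Trgc1, Trgc2 and Trgc4 each belong to a separate gamma cluster with its own V segments. Trgc1 (chr13:19214103-19217024, plus strand) averaged 2.92 ± 0.81 CPM in WT, 2.05 ± 0.69 in Dp16 and 2.70 ± 0.57 in Dp16_2xIFNRs (SD, n = 6). Trgc2 (chr13:19304649-19307551, minus strand) averaged 5.39 ± 1.18, 4.55 ± 1.37 and 4.71 ± 0.94 CPM. Trgc4 (chr13:19344558-19352756, plus strand) went the other way, with 3.39 ± 0.18, 4.16 ± 1.58 and 4.17 ± 0.69 CPM. The Trgc4 values of WT lay within 3.15 to 3.59 CPM, while Dp16 spread from 2.58 to 6.61. The log2 differences of Dp16 from WT were -0.51 ± 0.26 for Trgc1, -0.25 ± 0.21 for Trgc2 and 0.27 ± 0.20 for Trgc4. Over 24 fits the Trgc2 value ran from -0.38 to 0.14, positive with the shared description code as a block and negative in the other 23, and the Trgc4 value from 0.10 to 0.47. The difference between Trdc, which was called lower, and the gamma C genes, which were not, was not tested. Trgc3, 96.9% identical to Trgc1, had 16 counts in all and was no member.

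**Figure D3:**
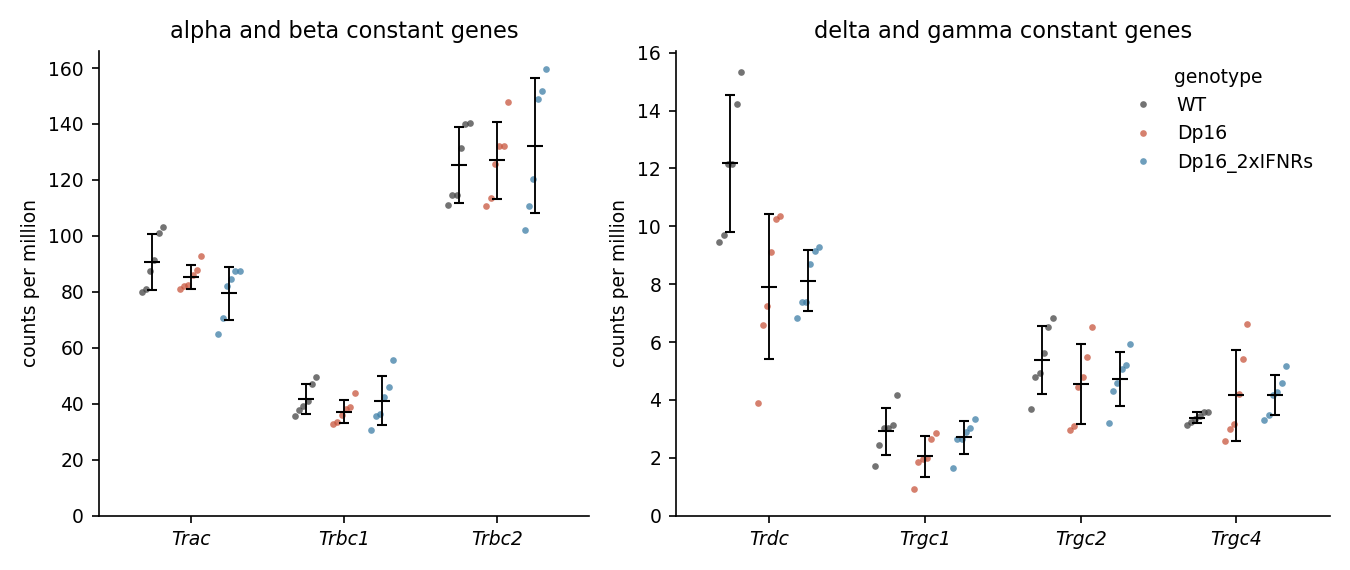
Level of the 7 constant genes in CPM in each of the 18 libraries, alpha and beta on the left and delta and gamma on the right; points are libraries, sorted by value within a genotype, and bars the mean with SD (n = 6). For Trdc the 6 Dp16_2xIFNRs libraries lie between 6.82 and 9.30, below the WT range of 9.46 to 15.3; for the other C genes the genotypes overlap.

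Beta V segments carried most of the V counts and gave the most precise picture of usage. The summed level of the 21 members was 66.1 ± 5.35 CPM in WT, 64.9 ± 8.03 in Dp16 and 65.8 ± 10.3 in Dp16_2xIFNRs (SD, n = 6), a fold of 0.982 and 0.995 against WT. Trbv13-2, a segment of the family once called Vbeta8, led with 13.7% of the beta V counts over all libraries. Trbv13-1 followed with 9.19%, Trbv13-3 with 8.60%, Trbv15 with 7.68% and Trbv3 with 6.82%, and the order ended with Trbv23 at 0.681% and Trbv30 at 0.378%. In WT alone Trbv15, at 6.07%, ranked below Trbv3 at 7.42% and Trbv16 at 6.25%. The lowest, median and highest Trbv13-2 shares were 11.7%, 13.0% and 14.8% in WT, 9.02%, 14.0% and 15.3% in Dp16, and 11.1%, 14.7% and 19.1% in Dp16_2xIFNRs. Trbv13-1 and Trbv13-3 lay within each other's spread in WT, at 8.96% ± 1.72 and 9.27% ± 1.32. The 3 Trbv13 segments together held 31.4% ± 1.82 of beta V counts in WT, 31.2% ± 3.13 in Dp16 and 31.8% ± 3.86 in Dp16_2xIFNRs.

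**Figure D4:**
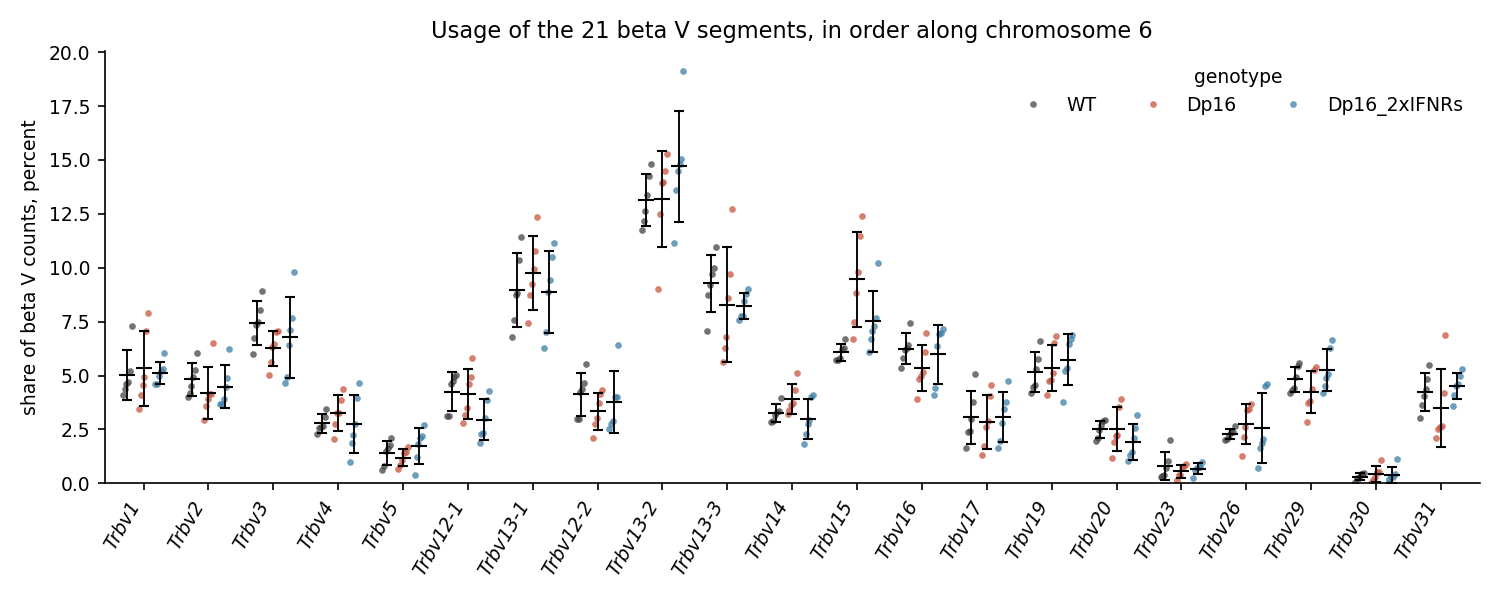
Share of each of the 21 beta V segments in the beta V counts, in percent, by genotype and in order along chromosome 6; points are libraries and bars the mean with SD (n = 6). Trbv13-2 is highest in each genotype, and for Trbv15 the Dp16 libraries reach 12.4% while WT stays at or under 6.70%.

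Trbv15 was the only V segment called by level. Its lowest, median and highest levels were 3.54, 3.81 and 5.07 CPM in WT, 4.27, 5.93 and 7.99 in Dp16, and 3.49, 4.86 and 7.34 in Dp16_2xIFNRs. Dp16 replicates 4, 5 and 6 were high, and Dp16 replicate 1 lay inside the WT range. The level was higher by 0.60 ± 0.18 (log2, SE) in Dp16 against WT (edgeR adjusted p = 0.0132), a fold of 1.51. In Dp16_2xIFNRs against WT the value was 0.31 ± 0.18 (edgeR adjusted p = 0.2) and was not called, and Dp16_2xIFNRs against Dp16 gave -0.29 ± 0.18 with a 95% interval from -0.65 to 0.08. The call in Dp16 was lost when a code that 7 pairs of libraries share in their descriptions was made a block (0.42, edgeR adjusted p = 0.423). Dp16 replicates 4, 5 and 6, the high ones, have codes that no other library shares, so they do not enter that estimate. The part of the code in the Trbv15 level was not tested. The call held in the other 23 of 24 fits.

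As a share of beta V counts, Trbv15 was 6.07% ± 0.40 in WT, 9.46% ± 2.22 in Dp16 and 7.51% ± 1.43 in Dp16_2xIFNRs (SD, n = 6). The WT libraries lay between 5.71% and 6.70% and the Dp16 libraries between 6.71% and 12.4%, so they did not overlap, by a margin of less than the value of 1 count. Shares failed to overlap for 1.48% of the 271 V segments of all antigen receptor loci in this comparison, and for 0% of them between Dp16_2xIFNRs and WT. In the usage fit, which takes the chain's V total as the base, Trbv15 had a log2 difference of 0.64 ± 0.27 (edgeR adjusted p = 0.394 over 271 V segments) and was not called.

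No T cell receptor segment was called in the usage fit. Of the 74 V members, 0 were called by edgeR in Dp16 against WT, where 1 had an unadjusted p under 0.05 and 0% of the 271 segments were called. In Dp16_2xIFNRs against WT, 0 of 74 were called and 1 had an unadjusted p under 0.05, beside 2.21% of the 271, none of them a T cell receptor segment. In Dp16_2xIFNRs against Dp16 0 were called and 0 had an unadjusted p under 0.05, beside 0% of the 271. The smallest p in the second comparison belonged to Trav13-4-dv7, with 2.23% of alpha V counts in WT and 0.767% in Dp16_2xIFNRs (log2 -1.56 ± 0.73, edgeR adjusted p = 0.413), and in the last to Trbv12-1, with 4.14% of beta V counts in Dp16 and 2.94% in Dp16_2xIFNRs (-0.52 ± 0.33, edgeR adjusted p = 0.833). Median standard errors over the 74 segments were 0.55 to 0.56 log2 units, so small changes in a typical segment were not detectable in this fit. The fit estimated spread over immunoglobulin V segments too. For beta V in Dp16 against WT the median standard error was 0.31 here and 0.24 in the level fit. The parts of depth and of the fit in these errors were not tested.

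Whole profiles of usage were also compared between pairs of libraries. The percent of beta V counts that would have to move from some segments to others to turn a library's profile into another's had a median of 13.4% over 45 pairs within genotypes (7.14% to 19.8%) and 13.7% over 108 pairs between genotypes (7.55% to 19.9%). Within WT the median was 9.67% over 15 pairs, against 14.9% within Dp16 and 14.0% within Dp16_2xIFNRs. For alpha the medians were 30.8% within and 31.5% between genotypes, with 25.2% within WT, 36.8% within Dp16 and 34.0% within Dp16_2xIFNRs. These pairs share libraries and are given without a test. The SD of a single alpha segment's share was at the median 47.4% of its mean in WT, 68.9% in Dp16 and 63.6% in Dp16_2xIFNRs. Libraries held 898 to 1538 alpha V counts in WT, 773 to 1098 in Dp16 and 714 to 1359 in Dp16_2xIFNRs. The part of depth in the alpha spreads and distances was not tested. Beta diversity, as the effective number of equally used V segments, was 17.0 ± 0.37 in WT, 16.5 ± 0.39 in Dp16 and 16.5 ± 0.91 in Dp16_2xIFNRs; the genotypes overlapped.

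Alpha V usage was spread over many segments, each with few counts. The members' mean counts per library ran from 6.39 to 44.1, 6 of 46 had 10 or more counts in every library, and 27 had a count of 0 in at least 1 library. Summed alpha V levels were 23.4 ± 3.69 CPM in WT, 19.0 ± 2.65 in Dp16 and 19.9 ± 3.17 in Dp16_2xIFNRs (SD, n = 6), with overlap and folds of 0.812 and 0.850 against WT. Of the 46, 0 were called by level in Dp16 against WT (1 with an unadjusted p under 0.05), and 14 had a positive value; the median was -0.32 log2 units. The leading segments were Trav16n with 4.37% of alpha V counts over all libraries, Trav13-1 with 3.64%, Trav16 with 3.59% and Trav4-4-dv10 with 3.49%, which lay within each other's spread. Trav16n held 4.30% ± 1.37 in WT, 4.57% ± 2.03 in Dp16 and 4.24% ± 0.79 in Dp16_2xIFNRs. Trav13-1 held 4.54% ± 1.30, 3.62% ± 1.94 and 2.78% ± 1.54, and its level had a log2 difference of -0.91 ± 0.41 in Dp16_2xIFNRs against WT (edgeR adjusted p = 0.101); it was called lower without Dp16_2xIFNRs replicate 3 and with limma-trend on RPKM.

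The alpha segments with the smallest usage p differed in their level of use. Trav21-dv12 held 2.27% of alpha V counts in WT, 1.11% in Dp16 and 1.70% in Dp16_2xIFNRs. Its usage difference was -1.19 ± 0.59 log2 units in Dp16 against WT (edgeR adjusted p = 0.408). Trav2 held 0.414%, 1.17% and 0.898%, at a mean under 10 counts per library. Trav12-2 held 3.53%, 4.08% and 2.08%, with 0% in Dp16_2xIFNRs replicate 6 and 5.00% in Dp16_2xIFNRs replicate 2. Trav6-2 held 0.514%, 0.310% and 1.25% and was at 0 in 4 of 6 Dp16 libraries. None of them was called by edgeR, while DESeq2, limma voom and limma-trend on RPKM called the level of Trav21-dv12 lower in Dp16 against WT.

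By position, the members nearest to Trac held most alpha V counts. Of the 35 segments at 243 to 759 kb, 26 were members, and these took 62.6% ± 4.35 in WT, 56.8% ± 2.67 in Dp16 and 57.7% ± 3.28 in Dp16_2xIFNRs (SD, n = 6). Of the 46 segments in the middle of the locus (766 to 1272 kb), 13 were members, which took 20.7% ± 1.42, 23.2% ± 3.92 and 21.6% ± 1.26. Of the 29 farthest (1278 to 1793 kb), 7 were members, which took 5.24% ± 1.44, 6.83% ± 1.82 and 7.28% ± 2.16. Segments that were no members hold the rest of the alpha V counts. The nearest members ran from 56.3% to 68.8% in WT and from 53.6% to 60.1% in Dp16, so the genotypes overlapped, and a sum over segments was not tested. Copies are unevenly placed: the median segment had 90.3% unique windows in the nearest stretch, 0% in the middle one and 37.5% in the farthest. These medians cover all segments of a stretch, while the shares are of members alone, and the part of uniqueness in the counts was not tested. Alpha diversity was 36.4 ± 2.47 effective segments in WT, 31.9 ± 3.41 in Dp16 and 34.2 ± 3.32 in Dp16_2xIFNRs, and 1.33 ± 0.82, 5.67 ± 3.14 and 4.17 ± 3.43 alpha V members were at a count of 0 in a library. Fewer alpha V counts also give more zeros, and the part of depth was not tested.

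Gamma V usage was carried by 3 segments. Their ends are shown because the leading ones are near copies (Trgv1 at chr13:19340395-19340454 on the plus strand, Trgv2 at chr13:19336573-19336632 on the minus strand, Trgv4 at chr13:19185447-19185506 on the plus strand, capitals from the last cysteine codon on).
Trgv1: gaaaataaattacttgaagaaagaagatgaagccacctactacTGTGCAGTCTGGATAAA
Trgv2: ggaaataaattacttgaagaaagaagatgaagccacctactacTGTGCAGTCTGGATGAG
Trgv4: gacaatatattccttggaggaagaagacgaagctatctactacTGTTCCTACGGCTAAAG
Trgv2 was 94.7% identical to Trgv1, though all its 100-base windows were unique. It held 43.1% ± 12.2 of gamma V counts in WT, 44.4% ± 16.9 in Dp16 and 42.6% ± 10.4 in Dp16_2xIFNRs (SD, n = 6). Trgv1 held 24.6% ± 6.04, 29.6% ± 20.6 and 27.8% ± 9.88, and was at 0 counts in Dp16 replicate 2 and at 57.3% in Dp16 replicate 4. Trgv4 held 25.8% ± 8.15, 17.2% ± 15.1 and 21.5% ± 10.4. In Dp16, 5 of 6 libraries lay at or under 15.0% for Trgv4, below the WT range of 17.6% to 37.4%, and replicate 2 lay above it at 47.4%. Its level had a log2 difference of -1.01 ± 0.52 in Dp16 against WT (edgeR adjusted p = 0.159) and its usage -0.72 ± 0.50 (edgeR adjusted p = 0.623), neither called; without Dp16 replicate 2, and with limma-trend on RPKM, its level was called lower. Summed gamma V levels were 2.73 ± 0.55, 2.14 ± 0.10 and 2.47 ± 0.32 CPM in the 3 genotypes, with overlap.

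Delta V segments had the fewest counts. Trdv2-2 held a mean of 33.7% of delta V counts and Trdv5 33.0%, followed by Trdv4 with 17.8% and Trdv1 with 15.1%. Single libraries were dominated by different segments: Trdv2-2 ran from 0% in Dp16 replicates 5 and 6 to 80.0% in Dp16 replicate 4, and Trdv5 from 8.00% in Dp16 replicate 2 to 66.7% in Dp16 replicate 6. Trdv1 held 22.8% ± 16.5 in WT, 13.2% ± 11.3 in Dp16 and 9.39% ± 15.6 in Dp16_2xIFNRs, where 3 of 6 libraries had 0 counts. With 0 counts, a true level of up to 3 counts (0.0566 to 0.0882 CPM by library) cannot be told from none; this floor covers counting error alone, as the libraries carry no molecular identifiers. The summed delta V level averaged 1.37 ± 0.45 CPM for WT, 1.21 ± 0.36 for Dp16 and 1.08 ± 0.17 for Dp16_2xIFNRs. No delta V segment was called by edgeR by level or by usage, while limma voom and limma-trend on RPKM called the level of Trdv1 lower in Dp16_2xIFNRs against WT.

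**Figure D5:**
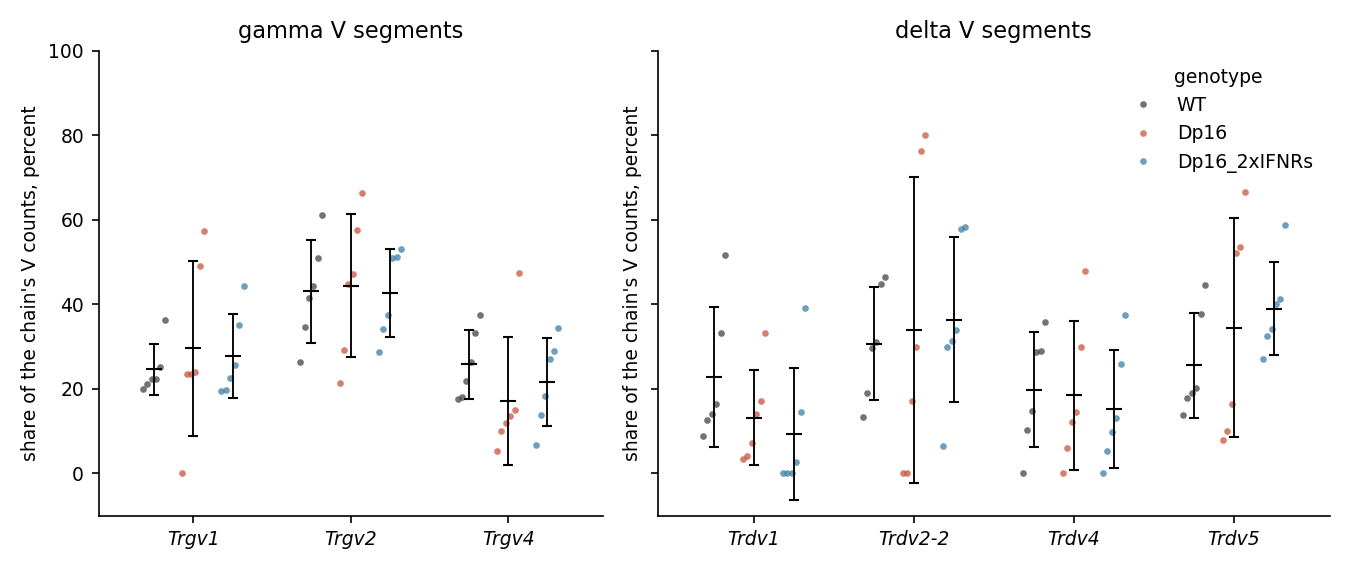
Share of each gamma V segment (left) and delta V segment (right) in the V counts of its chain, in percent; points are libraries and bars the mean with SD (n = 6). Single libraries range from 0% to 80.0%, and the 3 genotypes overlap for every segment.

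Among genes that act with the receptor, the CD3 subunits and Cd4 were not called while Cd8a was. Of 30 genes of the receptor complex and its signalling, 0 were called higher and 9 lower in Dp16 against WT, and 0 higher and 11 lower in Dp16_2xIFNRs against WT, at medians of -0.14 in both. Of all genes, 16.6% were called higher and 13.2% lower in the first comparison, and 17.3% and 14.2% in the second. Cd3e, a CD3 subunit, was 178 ± 21.7 CPM in WT, 187 ± 14.9 in Dp16 and 177 ± 38.5 in Dp16_2xIFNRs, and Cd4, the co-receptor of helper T cells, was 211 ± 21.4, 243 ± 17.8 and 229 ± 40.4. Cd247, the zeta chain, had log2 differences of -0.09 ± 0.10 and -0.13 ± 0.10. Cd8a, a co-receptor chain of cytotoxic T cells that some dendritic cells also express, was 102 ± 16.5 CPM in WT, 67.1 ± 11.5 in Dp16 and 66.8 ± 5.91 in Dp16_2xIFNRs, and fell by 0.60 ± 0.09 (edgeR adjusted p = 9.9e-05) and by 0.59 ± 0.09 (edgeR adjusted p = 1e-04). Its partner Cd8b1, more restricted to T cells, fell by 0.33 ± 0.10 in Dp16 (edgeR adjusted p = 0.0151) and had a value of -0.21 ± 0.10 in Dp16_2xIFNRs (edgeR adjusted p = 0.112). Malt1, a protease of antigen receptor signalling that B cells use as well, was called lower in both, with log2 differences of -0.59 ± 0.11 in Dp16 and -0.60 ± 0.11 in Dp16_2xIFNRs. The phosphatase Ptprc was called lower in both too, with -0.46 ± 0.07 and -0.43 ± 0.07. In Dp16_2xIFNRs against Dp16 0 of 30 were called in either direction by edgeR.

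Of 8 genes of receptor recombination and precursor T cells, 6 passed the filter on low counts; Rag2, a subunit of the recombinase, and Ptcra, the partner of beta in precursors, did not. Cd1d1, the lipid-presenting molecule that natural killer T cells recognise, Notch1 and its target Dtx1 were called lower in both Dp16 and Dp16_2xIFNRs against WT. These are 3 of 6, where 13.2% and 14.2% of all genes were called lower. Whole spleen holds cells other than T cells, and 9 of 9 B cell markers were called lower in both comparisons too. The part of other cells in these 3 differences was not tested. Rag1, the other recombinase subunit, had a mean of 0.363 CPM in WT, 0.209 in Dp16 and 0.317 in Dp16_2xIFNRs and was not called.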

How the data were processed

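Poly(A) RNA of 18 mouse spleens was sequenced in strand-specific, paired-end libraries, per the labels. The authors deposited whole-number read counts per gene and RPKM values per gene, made with GENCODE vM24 gene models per the name of the deposited tables. Tools named in the submitters' processing notes, in no order, are HTSeq 0.6.1, HISAT2 2.1.0, SAMtools 1.5, FastQC 0.11.5 and bcl2fastq, with the GRCm38 build; the strand setting and the handling of reads with several matches are not given in the sources used here. The RPKM deposited by the authors equalled the counts per kilobase and per library total, checked on 11538 genes. The members and gene lists were chosen with earlier results of these data known.

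Levels were fitted over all 18 libraries together in edgeR 4.0.16 (quasi-likelihood) with terms for genotype and sex (filterByExpr by genotype, 18634 genes, TMM, R 4.3.3). Usage was fitted over 271 V segments of all antigen receptor loci, T cell receptor and immunoglobulin, with at least 10 counts in at least 6 libraries and the chain's V total as offset; 1 V segment without a chain name was left out. Calls are at an adjusted p below 0.05. Shares are percent of all V counts of a chain. Sums have no test. All 81 members were matched by identifier to GENCODE vM21, and uniqueness was counted over 100-base windows (identity with edlib 1.3.9.post1). The labels number the samples of a genotype without saying that each is a separate animal, so p-values measure the spread between these samples. Alternatives were RLE size factors, haemoglobin and immunoglobulin genes left out, other filters, DESeq2 1.42.0, limma 3.58.1 on RPKM with 0.1 added or with voom, other terms or blocks, other bases of the share, and each library left out; omission of libraries rich in Gm42418 was added after seeing the data. The tests were also run on simulated data, and the outcome is not given here. The usage simulation changed alpha and beta segments only and gave all segments the same fixed spread. It therefore does not show what that fit detects at the spread of these data. Members are named if they are C genes, among the 4 leading V segments of a chain, called, among the 3 smallest p where none was, or among the 3 with the largest gap in share between the highest library and the next. Of the gene lists, the CD3 genes, Cd4, Cd8a, Cd8b1, Ptcra, Rag1, Rag2 and the called genes with the smallest p are named. Trbv3, Trbv23, Trbv30, Trav11, Trav11d, Trav1, Trgc3, Notch1 and the cell type markers fall outside that rule and were chosen after their values were seen.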

Additional observations from a re-analysis of the deposited data

Results flagged for a closer look

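In each genotype the share of each V segment and the CPM of each C gene chosen by the naming rule were checked for a library that stood far from the other 5, over 87 groups of 6 values; 6 were marked, and chance marks about 1 in 20 groups. Trav16n was at 5.76% of alpha V counts in Dp16_2xIFNRs replicate 1, next to 4.34% in the nearest library, from 54 counts. Trgv1 was at 36.4% of gamma V counts in WT replicate 4, next to 25.2%, from 44 counts. Trgv4 was at 47.4% of gamma V counts in Dp16 replicate 2, next to 15.0%, from 36 counts. Trdv1 was at 39.1% of delta V counts in Dp16_2xIFNRs replicate 2, next to 14.6%, from 18 counts. Trav2 was at 0% of alpha V counts in Dp16 replicate 3, next to 1.09%. Trav6-2 was at 1.42% of alpha V counts in Dp16 replicate 6, next to 0.438%, from 11 counts.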

How the results depend on the processing

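In Dp16 against WT, 2 members were called; limma-trend on RPKM gave 5, DESeq2 and limma voom 3 each, omission of the libraries rich in Gm42418 3, the block of shared description codes 1 (Trdc), and fits without a library 2 to 3. In Dp16_2xIFNRs against WT, 1 was called; DESeq2 gave 2, limma-trend on RPKM 6, limma voom 3, omission of the libraries rich in Gm42418 0, and fits without a library 0 to 2. Counts of 0 in Dp16_2xIFNRs against Dp16, between the sexes and in the usage fits stayed at 0 in every alternative run. With a replicate block by sample number, 2, 1 and 0 members were called in the 3 genotype comparisons; the numbers share no known animal or litter, and the deviations of same-numbered libraries correlated by 0.019 at the mean of 18 pairs (-0.13 to 0.20), so they were not taken as pairs. All 96 chain folds under other scalings and all 288 without a library were counted as unchanged from the main values, judged by the spread between libraries. That compares settings and not genotypes. Trdc, the only delta C gene, lay below all WT libraries in all Dp16_2xIFNRs libraries. Delta and gamma V shares are limited by 30 to 174 counts per library.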
